A study of Mus musculus with 48 samples.

Results

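Potassium channel genes were described here in C2C12 cells, an established line of mouse myoblasts, before and after differentiation and with or without mechanical stretching. The members were all gene symbols made of Kcn, further letters and a final number whose mean raw count over all 48 libraries was at least 10. Of 47480 symbols in the count tables, 92 matched the pattern and 33 of these reached the mean; the other 59 did not. Members were thus chosen by their mean count in these same libraries. Just above it were Kcnip3 (11.7 counts), Kcnq1 (12.5) and Kcnj14 (12.6), and just below it were Kcnu1 (7.96), Kcnh3 (7.83) and Kcne4 (7.19).

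The libraries came from myoblasts and from differentiated cells, each kept still or stretched for 1, 3 or 6 h, in 12 groups of 4. No genotype or drug separated the groups, and all cells grew on flexible plates coated with collagen, the stretched ones deformed equally in all directions in repeated cycles by a Flexcell device. By the paper's methods, myoblasts were kept in fetal bovine serum. Differentiated cells were plated more densely and kept for 4 days in horse serum. Each time had non-stretched libraries of its own. In myoblasts, replicates 7 and 8 came from experiment B27 and replicates 9 and 10 from B31, although the title of stretched replicate 9 at 1 h reads B231 where the count table reads B31. In differentiated cells, replicates 7 and 8 came from B25 and 9 and 10 from B28, except that the stretched group at 1 h held replicates 4, 7, 8 and 9, with replicate 4 the only library of experiment B17. Stage and experiment were therefore confounded, and a difference between stages cannot be told apart from one between experiments, sera or plating densities. C2C12 is a cell line and not muscle tissue, and its differentiated cultures keep unfused cells beside the fused ones.

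Potassium channels let potassium leave the cell and so set the resting membrane potential and end action potentials. The voltage-gated channels open on depolarization, the inward rectifiers and the tandem-pore leak channels hold the resting potential, and the calcium-activated channels couple potassium efflux to calcium. In muscle precursors, hyperpolarization through inward rectifiers is known to precede fusion, and one leak channel of the tandem-pore family, encoded by Kcnk2, is opened by membrane stretch. Of the 33 members, 12 encode voltage-gated pore subunits, 1 a silent voltage-gated subunit that forms no channel alone, 3 calcium-activated channels, 4 inward rectifiers, 6 tandem-pore leak channels and 7 auxiliary subunits.

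Library totals lay between 48447318 and 77080730 counts. The summed level of 5 proliferating myoblast markers (Myf5, Cdk1, Ccna2, Mki67 and Top2a) was 1512 to 1860 CPM (read counts scaled to library size) in myoblasts and 238 to 646 CPM in differentiated cells, while 5 differentiated muscle markers (Myog, Ckm, Acta1, Mef2c and Tnnt3) together reached 5.67 to 12.7 CPM and 5710 to 7487 CPM. Adipocyte (Adipoq, Plin1, Cidec) and neuron (Rbfox3, Syt1, Snap25) markers were at or near 0 in all libraries, at most 0.0362 and 0.0572 CPM. Osteoblast and endothelial markers stayed under 1 CPM, at most 0.586 and 0.962 CPM, and macrophage markers reached at most 1.54 CPM. Quiescent reserve cell markers (Pax7, Cd34, Hes1) lay between 109.97 and 145 CPM in both stages. Among the libraries at 1 h of differentiated cells, stretched replicate 4 had the highest proliferating level, 646 CPM, and the other 7 lay between 314 and 432 CPM.

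The sequences shown are those upstream of the genes whose response to stretching was largest or longest: Kcnj2, which was lower in both stages, its neighbour Kcnj16, and Kcnk13, which was higher in differentiated cells. RefSeq promoter windows (GRCm38.p6, the patch of mm10) were matched by symbol to 25 of the 33 members. Each sequence is the 250 bases before the annotated gene start on the plus strand, at chr11:111065914-111066163 for Kcnj2, chr11:110967783-110968032 for Kcnj16 (the window at the annotated gene start, of 4 in the table) and chr12:99964249-99964498 for Kcnk13. Capitals mark matches on either strand to CAGCTG or CACGTG, both of the E-box family bound by basic helix-loop-helix factors, to TGANTCA, TGACGTCA, the CArG box and the MEF2 site.
Kcnj2: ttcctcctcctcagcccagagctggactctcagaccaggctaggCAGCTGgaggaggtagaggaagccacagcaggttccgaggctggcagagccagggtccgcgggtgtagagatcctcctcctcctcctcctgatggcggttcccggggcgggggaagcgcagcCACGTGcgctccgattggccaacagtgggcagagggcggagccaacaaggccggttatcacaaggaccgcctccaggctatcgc
Kcnj16: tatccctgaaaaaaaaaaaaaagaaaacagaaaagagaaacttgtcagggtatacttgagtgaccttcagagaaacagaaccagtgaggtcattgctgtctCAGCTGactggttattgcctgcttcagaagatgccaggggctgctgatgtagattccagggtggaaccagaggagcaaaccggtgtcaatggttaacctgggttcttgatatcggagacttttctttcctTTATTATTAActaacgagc
Kcnk13: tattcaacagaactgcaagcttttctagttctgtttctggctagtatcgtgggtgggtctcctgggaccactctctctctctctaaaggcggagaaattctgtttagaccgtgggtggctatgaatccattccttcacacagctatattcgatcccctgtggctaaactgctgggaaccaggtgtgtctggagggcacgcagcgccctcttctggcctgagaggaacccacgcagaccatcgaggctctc
The Kcnj2 window held CAGCTG 201 to 206 bases and CACGTG 79 to 84 bases before the start, and the Kcnj16 window held CAGCTG 144 to 149 bases and a MEF2 site 10 to 19 bases before it. No match was found in the Kcnk13 window. CAGCTG was present in 13.0% of all 32851 windows and in 11 of the 42 windows of members, which belong to 6 genes (Kcnc2, Kcnip3, Kcnj16, Kcnj2, Kcnk2 and Kcnn1). CACGTG was present in 6.02% of all windows and in 4 windows of members, TGANTCA in 6.75% and 3, the MEF2 site in 2.92% and 1, and TGACGTCA (1.55%) and the CArG box (1.47%) in none of the 42. The motifs do not overlap in the windows shown.

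How much of each channel transcript the cells carried was read as CPM divided by the exon length in kilobases (RPKM), the scale used to compare genes, over the 12 non-stretched libraries of a stage. Myoblasts were led by Kcnn4 (16.2 ± 0.78 RPKM, SD, n = 12), an intermediate-conductance calcium-activated channel of proliferating cells, and by the silent subunit gene Kcnf1 (11.9 ± 0.559). Kcnk5, an acid-sensitive leak channel, followed at 4.01 ± 0.358 RPKM, then Kcnab3, a cytoplasmic beta subunit of voltage-gated channels, at 3.55 ± 0.222, and the stretch-opened leak channel Kcnk2 at 2.68 ± 0.13. The ranges of Kcnk5 (3.49 to 4.55 RPKM) and Kcnab3 (3.14 to 3.93) overlapped, whereas Kcnn4 and Kcnf1 each lay apart from the next gene. Of the summed CPM of all members, Kcnn4 made up 41.7% ± 1.37 and Kcnf1 28.6% ± 0.871 (SD, n = 12).

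In differentiated cells the abundant members included Kcnj12 (8.52 ± 0.438 RPKM, n = 12), an inward rectifier of muscle. Kcnf1 stood at 6.15 ± 0.399 RPKM and the small-conductance calcium-activated channel gene Kcnn3 at 4.80 ± 0.656. The ranges of Kcnn3 (3.60 to 5.52 RPKM) and the inward rectifier Kcnj2 (3.31 to 5.98) overlapped, so their order was not resolved. Kcnn3 made up 14.4% ± 1.46 of the members' summed CPM.

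**Figure D1:**
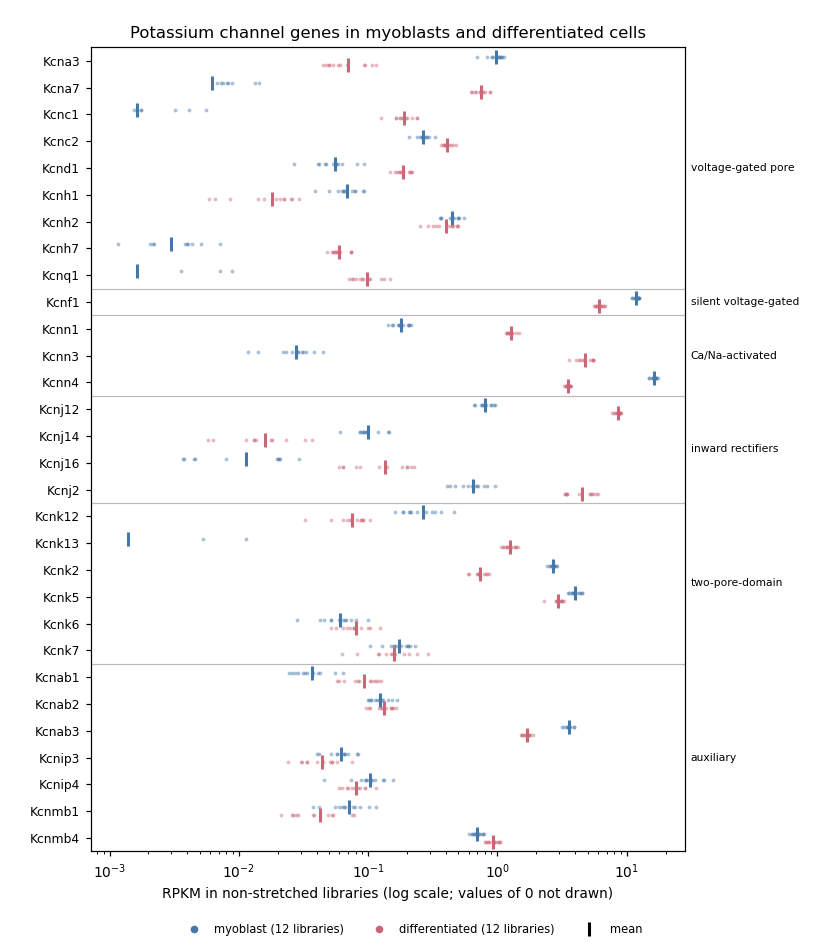
RPKM (log axis) of 30 potassium channel genes in the 12 non-stretched libraries of each stage, with a point per library and a bar at the mean; libraries at 0 are not drawn. Kcnn4 and Kcnf1 lead in myoblasts (means 16.2 and 11.9 RPKM), and Kcnj12 lies at 8.52 RPKM in differentiated cells.

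Between the stages, 16 members were called higher in differentiated cells and 9 lower, of 33 tested (75.8%). Calls needed an adjusted p under 0.05 and a log2 change of 0.58 or more, up or down, and 50.5% of all genes tested met this (26.4% higher and 24.1% lower). A member that passed the minimum mean through 1 stage alone had to differ between them. The share thus reflects in part how the members were chosen, and it is given as a description only. By role, 9 of 12 voltage-gated pore genes were called higher and 2 lower, 3 of 4 inward rectifiers higher and 1 lower, 2 of 3 calcium-activated channels higher and 1 lower, 1 of 6 leak channels higher and 2 lower, 1 of 7 auxiliary subunits higher and 2 lower, and the silent subunit lower.

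The largest rises included those of genes nearly silent in myoblasts. Kcnk13, which encodes a leak channel that inhalational anaesthetics inhibit, had 3 counts in total over the 12 non-stretched myoblast libraries, 10 of them at 0, and 2856 counts over the 12 differentiated ones, a CPM ratio of 935 with an exact 95% counting interval of 320 to 4539. Kcnn3 rose by 7.41 on the log2 scale (SE 0.113, edgeR adjusted p = 8.65e-30), from 0.289 ± 0.097 CPM to 50.2 ± 6.85 CPM (SD, n = 12). Kcnc1, a fast-activating voltage-gated channel, went from 11 to 1322 counts in total, a ratio of 118 (65.8 to 237), and Kcna7, a voltage-gated channel of muscle and heart, from 10 to 1189 counts, a ratio of 117 (63.3 to 244). Intervals of this kind cover counting error only. Kcnk13, Kcnc1 and Kcna7 had at most 2, 4 and 3 counts in any myoblast library, and reached the minimum mean of 10 through differentiated cells. That they rose was thus set by the member rule, and the intervals are no support for it.

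The inward rectifiers of muscle were also higher in differentiated cells. Kcnj12 went from 2.22 ± 0.26 CPM to 23.4 ± 1.2 CPM (log2 fold change 3.36, SE 0.0465, edgeR adjusted p = 9.76e-31) and Kcnj2 from 3.50 ± 0.917 CPM to 24.6 ± 5.84 CPM (2.79, SE 0.138, adjusted p = 2.20e-17). Kcnj16, whose subunit pairs with other inward rectifiers, had 31 counts in total in myoblasts and 385 in differentiated cells, a ratio of 12.2 (8.46 to 18.2). With at most 7 counts in any myoblast library, Kcnj16 too reached the minimum mean through differentiated cells. Kcnj14, the remaining inward rectifier, went the other way, with 197 counts in myoblasts and 33 in differentiated cells, a ratio of 6.08 (4.19 to 9.07). Its value is uncertain, because 35.6% of its sequence stretches of 31 bases are also in other genes, mainly Gm5522, and its reads could be divided between them.

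The 5 largest falls were those of Kcna3, Kcnj14, Kcnn4, Kcnh1 and Kcnk2. Kcna3, a voltage-gated channel of lymphocytes and proliferating cells, fell by 3.80 on the log2 scale (SE 0.126, edgeR adjusted p = 1.13e-21), from 1.86 ± 0.235 CPM to 0.134 ± 0.048 CPM. Kcnn4 fell by 2.24 (SE 0.026, adjusted p = 1.49e-32), from 83.0 ± 3.99 CPM to 18.0 ± 0.687 CPM, where at 3.51 RPKM it still lay above the next gene, Kcnk5 (2.95 RPKM). Kcnh1, a slow voltage-gated channel that is known to act with inward rectifiers in myoblasts before fusion, fell by 1.95 (SE 0.193, adjusted p = 1.92e-10), from 0.503 ± 0.116 CPM to 0.132 ± 0.0577 CPM. Kcnk2 fell by 1.90 (SE 0.0485, adjusted p = 1.83e-24), from 13.3 ± 0.643 CPM to 3.61 ± 0.405 CPM. None of these ranges overlapped between the stages. Kcna3, Kcnh1 and Kcnj14 had medians of 7.5, 8.5 and 2 counts in non-stretched differentiated libraries, and reached the minimum mean through myoblasts. That they fell was thus set by the member rule, and their p-values and intervals are no support for it.

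Stretched and non-stretched libraries were compared at each time with 4 against 4. In myoblasts, 1 of 27 tested members was called at 1 h (Kcnj2, lower), where 1.25% of all genes tested were called (0.254% higher and 0.997% lower). At 3 h, 4 of 27 were called (background 1.71%), 1 higher (0.459%) and 3 lower (1.25%), and at 6 h 3 of 27 (background 2.17%), 2 higher (1.35%) and 1 lower (0.823%). In differentiated cells, none of 30 was called at 1 h (background 0.27%, with 0.0901% higher and 0.18% lower) with edgeR, 2 of them had an unadjusted p under 0.05, and DESeq2 also called 0. At 3 h, 2 of 29 were called (background 1.63%), 1 higher (0.89%) and 1 lower (0.741%), and at 6 h 3 of 27 (background 2.04%), 1 higher (0.518%) and 2 lower (1.52%). In all, 8 members were called in 13 pairs of gene and comparison. All 13 had the same direction in both experiments, but the libraries of these experiments also gave the calls, so this is no separate test.

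With the fold-change limit left out, 1, 11 and 6 members had an adjusted p under 0.05 in myoblasts at 1, 3 and 6 h (background 5.92%, 31.9% and 27.2% of all genes) and 0, 5 and 11 in differentiated cells (0.663%, 22.2% and 22.3%). At 6 h in differentiated cells 9 of the 27 members tested had such a p and were lower, beside 10.8% of all genes tested. Of the 11 members past 0.05 there, 9 were lower, and of the 3438 genes past it, 1666 were. In the same comparison all stretched libraries lay below all non-stretched ones in 8 of 27 members, beside 12.2% of all genes, among them Kcnab3, Kcnc1, Kcnc2, Kcnj16, Kcnn1 and Kcnn3. The median log2 fold change of the 27 members tested there was -0.30, beside -0.00012 over all genes, and between -0.18 and -0.0026 in the other comparisons.

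**Figure D2:**
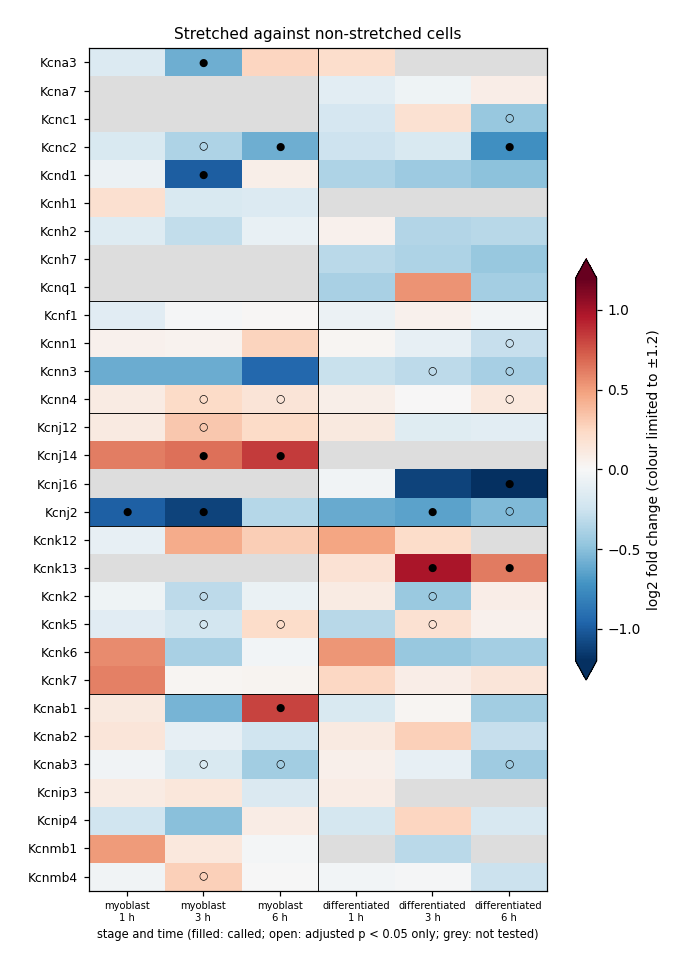
Log2 fold change of stretched against non-stretched cells for 30 members (rows, by channel role) in the 6 comparisons (columns); filled circles mark calls, open circles an adjusted p under 0.05 without the fold change, and grey cells were not tested. The Kcnj2 value is below 0 in every column, and at 6 h in differentiated cells 9 of the members drawn carry a circle.

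Kcnj2 (chr11:111066164-111076821, plus strand) encodes the classical inward rectifier of muscle, mutated in an inherited periodic paralysis. In myoblasts at 1 h its level was 3.46, 2.56, 3.20 and 2.93 CPM in non-stretched replicates 7 to 10 and 1.82, 1.68, 1.42 and 1.30 CPM in stretched ones. Every stretched library lay below every non-stretched one, and the gene fell by 0.98 on the log2 scale (SE 0.133, edgeR adjusted p = 0.00138). At 3 h the values were 5.25, 4.53, 3.78 and 3.66 CPM without stretching and 2.13, 2.16, 1.60 and 2.09 CPM with it, a fall by 1.12 (SE 0.129, adjusted p = 4.08e-05), again without overlap. At 6 h they were 4.26, 3.84, 2.34 and 2.21 CPM against 2.86, 2.75, 2.52 and 1.69 CPM, and the groups overlapped (log2 fold change -0.35, SE 0.229, adjusted p = 0.297). The effects at 6 h and 1 h differed by 0.64 (SE 0.293, adjusted p = 0.152), which did not pass the test. The stretched to non-stretched ratio within B27 and B31 was 0.582 and 0.442 at 1 h, 0.439 and 0.496 at 3 h, and 0.693 and 0.925 at 6 h. Without stretched replicate 9 at 1 h, the Kcnj2 value there was -0.93 (adjusted p = 0.00784). In stretched myoblasts Myog, a driver of muscle differentiation, had log2 fold changes of -1.25, -0.82 and -0.54 at 1, 3 and 6 h (edgeR adjusted p = 0.0501, 0.0167 and 0.0356). Its mean over non-stretched myoblasts was 1.58 CPM. The 5 differentiated muscle markers summed, Myog among them, overlapped between the groups at each time. At 1 h the sums were 8.55 to 12.7 CPM without stretching and 7.72 to 8.79 CPM with it. At 3 h they were 8.15 to 12.1 CPM against 7.57 to 9.53 CPM, and at 6 h 6.19 to 7.09 CPM against 5.67 to 6.74 CPM. The part of differentiation in the Kcnj2 values was not tested.

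In differentiated cells Kcnj2 also differed between experiments. Without stretching it lay between 28.5 and 32.5 CPM in the 6 libraries of B25 and between 18.0 and 23.4 CPM in the 6 of B28, with a ratio of 1.55 between the means. At 1 h the non-stretched values were 30.0, 28.5, 18.5 and 18.0 CPM in replicates 7 to 10, and the stretched ones 12.1, 19.1, 17.02 and 14.3 CPM in replicates 4, 7, 8 and 9 (log2 fold change -0.60, SE 0.192, edgeR adjusted p = 0.281). The groups overlapped, although within B25 both stretched libraries lay below both non-stretched ones. Without replicate 4 the log2 fold change was -0.50 (adjusted p = 0.442). With the experiment as a covariate, where the lone library of B17 adds nothing to the comparison, it was -0.57 with an adjusted p of 0.00439, short of the fold-change limit.

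At 3 h in differentiated cells Kcnj2 measured 28.5, 29.2, 18.9 and 18.2 CPM without stretching and 15.8, 17.7, 13.9 and 13.1 CPM with it, and fell by 0.64 (SE 0.159, edgeR adjusted p = 0.0158) with no overlap. The call was lost without non-stretched replicate 7 (log2 fold change -0.54), non-stretched replicate 8 (-0.53) or stretched replicate 10 (-0.58, adjusted p = 0.0506). Of 15 alternative fits, the other 12 kept the call, among them a model that included the experiment (-0.63, adjusted p = 0.000154). At 6 h the values were 32.5, 31.2, 18.8 and 23.4 CPM against 20.2, 19.95, 17.5 and 15.9 CPM, and the groups overlapped. The log2 fold change of -0.53 (SE 0.154, adjusted p = 0.0328) stayed short of the limit, and passed it without non-stretched replicate 9 (-0.66) or 10 (-0.58, adjusted p = 0.0415). In 6 of 15 alternative fits the adjusted p at 6 h came to 0.05 or over, at most 0.0933 without non-stretched replicate 8. A model that included the experiment gave -0.51 (adjusted p = 0.00293), also short of the limit. Within B25 and B28 the ratio of stretched to non-stretched Kcnj2 was 0.618 and 0.782 at 1 h, 0.58 and 0.728 at 3 h, and 0.630 and 0.792 at 6 h. The stretch effect on Kcnj2 was not shown to differ between the stages at any time (edgeR adjusted p = 1.00, 0.442 and 0.794 at 1, 3 and 6 h).

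**Figure D3:**
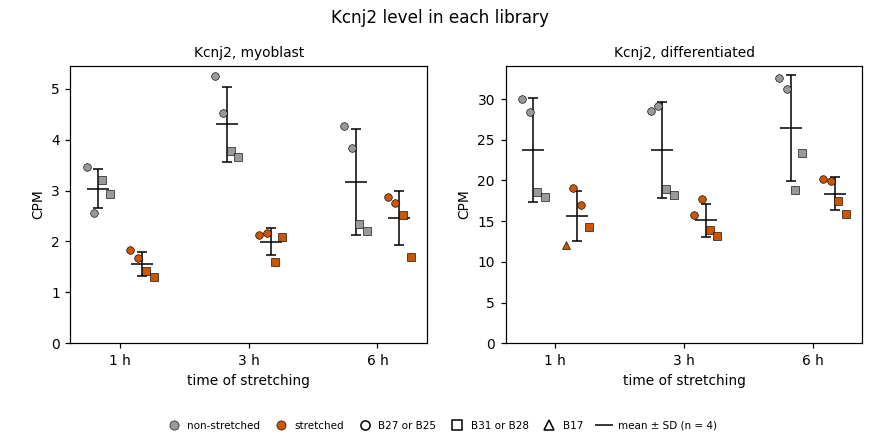
Kcnj2 level (CPM, linear axes from 0 with a different scale for each stage) in each library of myoblasts and differentiated cells at 1, 3 and 6 h; colour shows stretching, symbol the experiment, and bars the mean ± SD of 4 libraries. Stretched libraries lie below the non-stretched ones of the same experiment at 1 and 3 h in both stages, and in differentiated cells B25 lies above B28.

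Kcnj16 (chr11:110968033-111027968) ends 38.2 kb before Kcnj2 on the same strand, with 0 annotated genes between them in GENCODE vM21. In differentiated cells at 6 h it measured 0.786, 0.886, 0.253 and 0.478 CPM without stretching and 0.149, 0.125, 0.127 and 0.197 CPM with it, that is 16 to 52 counts against 7 to 12. Every stretched library was lower, and the gene fell by 1.97 on the log2 scale (SE 0.404, edgeR adjusted p = 0.00679). The ratio was 0.163 within B25 and 0.443 within B28, and like Kcnj2 the gene was higher in non-stretched B25 (0.549 to 0.886 CPM) than in B28 (0.234 to 0.478 CPM). At 3 h its log2 fold change was -1.11 (adjusted p = 0.0563) and at 1 h -0.042 (adjusted p = 0.993). The difference between the effects at 6 h and 1 h, -1.93 (SE 0.642), had an adjusted p of 0.0728.

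Kcnj14 was the inward rectifier called higher, in myoblasts. At 6 h it measured 0.264, 0.247, 0.259 and 0.234 CPM without stretching and 0.454, 0.342, 0.466 and 0.517 CPM with it, 14 to 17 counts against 20 to 31, with no overlap (log2 fold change 0.84, SE 0.207, edgeR adjusted p = 0.0117). At 3 h the values were 0.385, 0.265, 0.234 and 0.254 CPM against 0.456, 0.396, 0.458 and 0.504 CPM (0.66, SE 0.223, adjusted p = 0.0365). This Kcnj14 call at 3 h was lost with DESeq2 (adjusted p = 0.103) and once non-stretched replicate 8, 9 or 10, or stretched 7, 9 or 10, was left out (log2 fold change 0.59 to 0.66, adjusted p = 0.0738 to 0.0952). The shared sequence named above bears on both times. The fourth member of the family, Kcnj12, had a log2 fold change of 0.32 in myoblasts at 3 h (SE 0.103, adjusted p = 0.0294, and 0.00996 to 0.0924 over the alternatives). In differentiated cells at 3 h the Kcnj12 value was -0.14 (SE 0.0627, adjusted p = 0.135).

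Among the leak channels, Kcnk13 was called, in differentiated cells. At 3 h its level was 3.99, 3.70, 3.70 and 3.72 CPM in non-stretched replicates 7 to 10 and 7.98, 7.87, 6.89 and 7.11 CPM in stretched ones. All stretched libraries were higher, and the gene rose by 0.98 on the log2 scale (SE 0.0707, edgeR adjusted p = 4.80e-05), with a ratio of 2.06 within B25 and 1.89 within B28. At 6 h it measured 3.98, 4.36, 4.28 and 3.44 CPM against 7.22, 6.89, 5.12 and 5.61 CPM, again without overlap (0.63, SE 0.121, adjusted p = 0.00529), and within-experiment ratios of 1.69 and 1.39. This Kcnk13 call at 6 h was lost on the fold-change limit without non-stretched replicate 10 (0.56), stretched replicate 7 (0.55) or stretched replicate 8 (0.57). At 1 h the groups overlapped (0.17, SE 0.182, adjusted p = 0.902). In myoblasts the gene had at most 2 counts in a library and was not tested.

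The stretch-opened channel gene Kcnk2 measured 13.6, 11.9, 12.7 and 13.3 CPM in non-stretched myoblasts at 3 h and 10.9, 10.3, 10.2 and 10.3 CPM in stretched ones, a log2 fold change of -0.31 (SE 0.0511, edgeR adjusted p = 0.000512). After differentiation, at 3 h, it measured 3.57, 4.13, 3.45 and 3.55 CPM against 2.67, 2.94, 2.64 and 2.52 CPM (-0.44, SE 0.0888, adjusted p = 0.00554). Neither change reached the fold-change limit, and in both the groups did not overlap. At 6 h the values of Kcnk2 were -0.081 in myoblasts and 0.079 in differentiated cells (adjusted p = 0.185 and 0.701). Kcnk5 was lower in stretched myoblasts at 3 h (-0.22, SE 0.063, adjusted p = 0.0172) and higher in stretched differentiated cells at 3 h (0.18, SE 0.0506, adjusted p = 0.0251). Over the alternatives the adjusted p was 0.00218 to 0.0529 in myoblasts and 0.0158 to 0.0776 in differentiated cells. The 2 effects on Kcnk5 differed by 0.40 (SE 0.0872, adjusted p = 0.0236), also short of the limit. Kcnk12, Kcnk6 and Kcnk7 passed no test of stretching.

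The voltage-gated pore genes that were called were all lower in stretched cells. Kcnc2 (chr10:112271121-112467024), a fast-activating channel of rapidly firing neurons, was called at 6 h in both stages. In differentiated cells it measured 2.82, 2.71, 2.86 and 3.41 CPM without stretching and 1.62, 1.74, 1.84 and 1.89 CPM with it, and fell by 0.74 (SE 0.109, edgeR adjusted p = 0.00173). In myoblasts it measured 1.85, 1.80, 1.91 and 1.87 CPM against 1.14, 1.47, 1.04 and 1.25 CPM, and fell by 0.58 (SE 0.119, adjusted p = 0.00448). Neither comparison had overlapping groups. The Kcnc2 call in myoblasts fell under the fold-change limit with non-stretched library 9 (-0.57), stretched library 7 (-0.56) or stretched library 9 (-0.51) left out.

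Kcna3 and Kcnd1 were called lower in myoblasts at 3 h. Kcna3 measured 2.03, 1.97, 2.05 and 1.97 CPM without stretching and 1.32, 1.37, 1.24 and 1.44 CPM with it, with no overlap, and fell by 0.59 (SE 0.104, edgeR adjusted p = 0.000871). With non-stretched library 9, or stretched library 7 or 9, left out, the Kcna3 value was -0.57, -0.58 and -0.55, under the limit. Kcnd1, which carries transient outward currents, measured 0.284, 0.331, 0.487 and 0.435 CPM against 0.162, 0.167, 0.163 and 0.298 CPM, 14 to 25 counts against 10 to 16. The Kcnd1 groups overlapped through stretched replicate 10, and the gene fell by 0.99 (SE 0.289, adjusted p = 0.0193). That call was lost once non-stretched library 9 or 10, or stretched library 7, 8 or 9, was left out (-0.92 to -0.85, adjusted p = 0.0541 to 0.0584). In the same comparison Myog was lower while the summed differentiated muscle markers overlapped, as given above. The part of differentiation in the Kcna3 and Kcnd1 values was not tested.

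Calcium-activated channels showed small changes in opposite directions. Kcnn3 measured 57.5, 57.7, 48.2 and 49.4 CPM in non-stretched differentiated cells at 6 h and 42.3, 41.3, 43.6 and 34.4 CPM in stretched ones (log2 fold change -0.40, SE 0.0792, edgeR adjusted p = 0.00592, and 4.91e-05 to 0.0597 over the alternatives). At 3 h in these cells it was also lower (edgeR adjusted p = 0.0214, and 0.00247 to 0.156 over the alternatives). Kcnn1, a further small-conductance channel, had a log2 fold change of -0.27 in differentiated cells at 6 h (SE 0.0763, adjusted p = 0.0276, and 0.00986 to 0.0717 over the alternatives). Kcnn4 was higher in stretched myoblasts at 3 h, with 80.7, 81.5, 76.4 and 82.2 CPM without stretching and 90.6, 94.0, 97.8 and 95.7 CPM with it (0.23, SE 0.0308, adjusted p = 0.000139). At 6 h the Kcnn4 change was 0.15 in myoblasts (SE 0.032, adjusted p = 0.00528) and 0.13 in differentiated cells (SE 0.0397, adjusted p = 0.0379, and 0.0354 to 0.114 over the alternatives). The stretch effects on Kcnn4 at 3 h differed between the stages by -0.23 (SE 0.053, adjusted p = 0.0322, and 0.00756 to 0.0811 over the alternatives).

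Of the auxiliary subunits, Kcnab1, a beta subunit that speeds inactivation, was called higher in stretched myoblasts at 6 h. It measured 0.233, 0.212, 0.366 and 0.351 CPM without stretching and 0.563, 0.461, 0.559 and 0.434 CPM with it, 12 to 24 counts against 26 to 36, with no overlap (log2 fold change 0.81, SE 0.227, edgeR adjusted p = 0.0218). After differentiation, Kcnab1 at 6 h measured 0.679, 0.732, 0.947 and 0.893 CPM against 0.495, 0.463, 0.759 and 0.724 CPM (-0.42, SE 0.206, adjusted p = 0.172). The call in myoblasts was lost once non-stretched library 7 or 8, or stretched library 7 or 9, was left out (0.69 to 0.75, adjusted p = 0.0568 to 0.0688). Kcnab3 was lower at 6 h in both stages, at -0.42 in myoblasts (SE 0.0612, adjusted p = 0.000776) and -0.43 in differentiated cells (SE 0.0966, adjusted p = 0.0108). In both stages the Kcnab3 groups at 6 h did not overlap, with 9.01 to 10.3 CPM against 6.67 to 7.52 CPM and 4.34 to 5.05 CPM against 3.05 to 3.93 CPM.

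**Figure D4:**
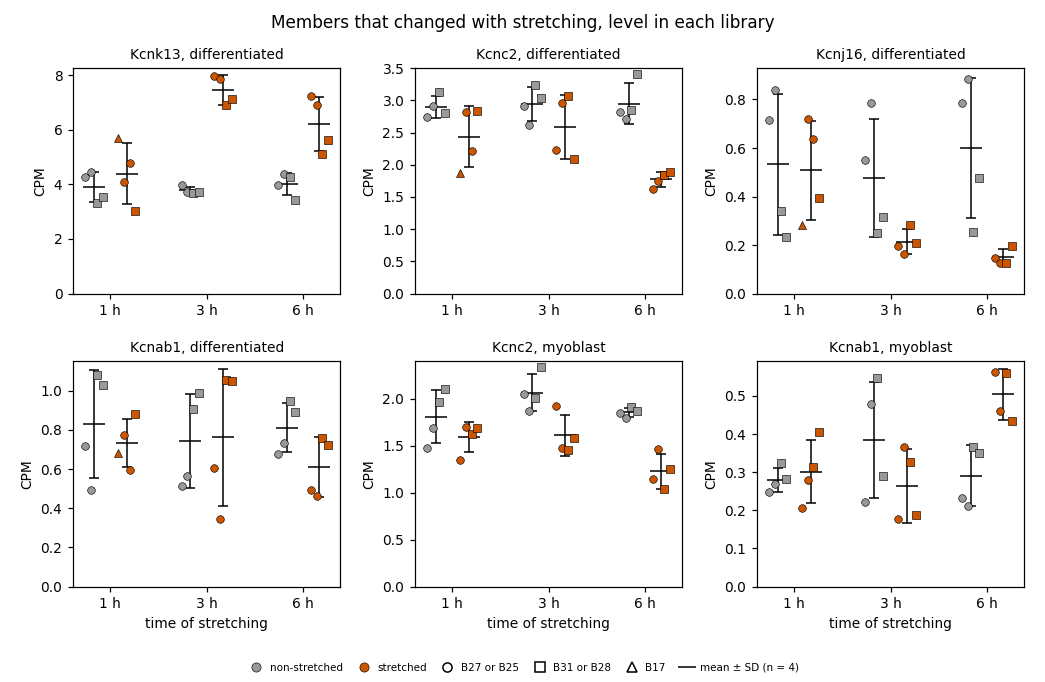
Level (CPM, linear axes from 0, scaled per panel) of Kcnk13, Kcnc2, Kcnj16 and Kcnab1 in differentiated cells and of Kcnc2 and Kcnab1 in myoblasts at 1, 3 and 6 h; colour shows stretching, symbol the experiment, bars the mean ± SD of 4 libraries. At 6 h stretched Kcnk13 (5.12 to 7.22 CPM) lies above and stretched Kcnc2 and Kcnj16 lie below all non-stretched libraries of differentiated cells.

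Whether the response to stretching differed between stages or times was tested directly. The effect on Kcnab1 at 6 h differed between the stages by -1.23 (SE 0.305, edgeR adjusted p = 0.0276) and was the single member called, of 33 tested at 6 h (background 0.64%, with 0.123% higher and 0.517% lower in differentiated cells). It was lost without any of 7 libraries, namely myoblast non-stretched replicates 7 and 8, myoblast stretched replicates 7 and 9, differentiated non-stretched replicate 10 and differentiated stretched replicates 7 and 8 (-1.18 to -1.10, adjusted p = 0.0509 to 0.0658). At 1 h and 3 h edgeR called 0 of 33 (background 0% and 0.252%), with 2 and 7 members at an unadjusted p under 0.05 and 0 called by DESeq2. Between 6 h and 1 h edgeR called 0 of 27 members in myoblasts (background 2.89%, with 2.28% higher and 0.608% lower) and 0 of 32 in differentiated cells (background 2.17%, with 1.07% higher and 1.1% lower), with 7 and 9 at an unadjusted p under 0.05, and DESeq2 called 0 and 1. With the fold-change limit left out, the differences between stages had 0, 3 and 2 members at an adjusted p under 0.05 at 1, 3 and 6 h (background 0%, 1.79% and 5.18%), and those between times 2 in myoblasts and 3 in differentiated cells (18.1% and 8.69%).

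Summed over all 33 members, the level in differentiated cells at 6 h was 338 to 366 CPM without stretching and 288 to 301 CPM with it, and the groups did not overlap. At 1 h it was 325 to 360 CPM against 301 to 342 CPM, and at 3 h 335.1 to 363 CPM against 319 to 334.6 CPM, also apart. In myoblasts the sums lay between 186 and 210 CPM in all 6 groups, and stretched and non-stretched libraries overlapped at each time. At 6 h the summed differentiated muscle markers lay between 5710 and 6543 CPM in stretched differentiated cells and between 6216 and 7206 CPM in non-stretched ones, and their part in the lower channel levels was not tested. In bulk RNA, fewer cells of a type and less RNA per cell cannot be told apart.

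**Figure D5:**
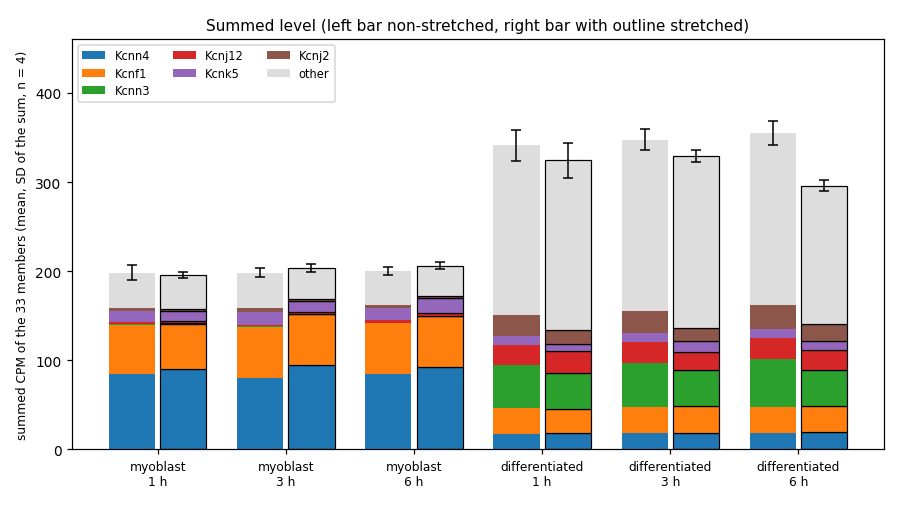
Summed CPM of the 33 members in each group (bars from 0, stacked by gene, 6 abundant genes named and the rest summed as other), with the left bar of each pair non-stretched and the right, outlined bar stretched; the error bar is the SD of the sum over 4 libraries. Kcnn4 and Kcnf1 fill most of the myoblast bars, and in differentiated cells the stretched bar at 6 h is the lowest of the stage (296 CPM).

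Other genes of membrane excitability (pumps, sodium, calcium and chloride channels, cotransporters and channel regulators, 36 in all) gave shares of calls near the background. In stretched myoblasts 0 of 21, 0 of 23 and 1 of 21 tested genes were called at 1, 3 and 6 h (background 1.25%, 1.71% and 2.17%), and in differentiated cells 0 of 29, 0 of 29 and 1 of 28 (0.27%, 1.63% and 2.04%). The gene called in myoblasts was Hcn3, a hyperpolarization-activated cation channel, which measured 0.249 to 0.30 CPM without stretching and 0.350 to 0.730 CPM with it at 6 h (log2 fold change 0.90, SE 0.268, edgeR adjusted p = 0.0281). Its level was low, with 9 to 35 counts per library over all non-stretched myoblasts. The gene called in differentiated cells was Lrrc26, whose protein shifts the gating of large-conductance calcium-activated channels. Lrrc26 measured 0.732 to 1.29 CPM without stretching and 0.320 to 0.506 CPM with it at 6 h (-1.31, SE 0.225, adjusted p = 0.00314), and its effect at 6 h was lower than at 1 h by 1.21 (SE 0.309, adjusted p = 0.0237). The alternative fits covered the members only, so the results of Hcn3 and Lrrc26 were not checked under them. In the counts of 0 above, edgeR gave 6 and 9 genes at an unadjusted p under 0.05 in myoblasts at 1 and 3 h and 1 and 7 in differentiated cells. Between the stages, 21 of 27 tested genes of this list were called higher in differentiated cells and 3 lower, beside 26.4% and 24.1% of all genes.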

How the data were processed

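Stranded mRNA libraries (48) were made from C2C12 cells. The authors used STAR and Salmon and deposited, for each stage, a table of whole-number counts per gene symbol without normalization (mm10); 0 count columns were left out. The labels name the molecule as nuclear RNA, whereas the study's methods describe RNA of whole cells. After filterByExpr and TMM scaling, groups were compared by quasi-likelihood tests (two-sided) in edgeR 4.0.16 under R 4.3.3, with Benjamini-Hochberg adjustment over all genes; DESeq2 1.42.0 was an alternative. CPM uses TMM factors over all 48 libraries and RPKM the union of exons in GENCODE vM21. The SE is the log2 fold change divided by the square root of the F statistic. P-values measure the spread between these samples, 2 from each experiment except in the stretched group of differentiated cells at 1 h. The code was tested on simulated data. The named genes are the members called for stretching, the 5 most abundant in each stage, the 5 largest rises and falls between stages and the 3 nearest the minimum mean on either side; members named beside these, such as Kcnk5, Kcnj12, Kcnn1 and Kcnab3, were chosen after their values were seen. Results of 3 members are not reported here, though counts and sums over the members include them. Members and lists were chosen with earlier results of these data known. Alternatives were another scaling, filter or tool, no fold-change limit, covariates, a replicate block and leaving out each library.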

Additional observations from a re-analysis of the deposited data

Results flagged for a closer look

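In groups of 4 libraries, a library was marked where its gap to the nearest other as a share of the group's range exceeded Dixon's 95% limit. This held in 8 of 96 groups over the 8 members called for stretching, and chance marks about 5% of groups. In myoblasts, stretched replicate 10 at 3 h had 0.298 CPM of Kcnd1, beside 0.162 to 0.167 CPM in the others, and stretched replicate 9 at 3 h had 1.60 CPM of Kcnj2, beside 2.09 to 2.16 CPM. In differentiated cells, non-stretched replicate 7 at 3 h had 3.99 CPM of Kcnk13, beside 3.70 to 3.72 CPM. The remaining 5 rest on a few reads in myoblasts. Kcnj16 measured 0.0181 CPM in non-stretched replicate 10 at 3 h (others 0.078 to 0.0827), 0 CPM in stretched replicate 7 at 1 h (others 0.0149 to 0.0175) and 0.0155 CPM in stretched replicate 9 at 6 h (others 0). Kcnk13 measured 0.0165 CPM in non-stretched replicate 10 at 1 h and 0.0353 CPM in non-stretched replicate 8 at 6 h, with the others at 0.

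The effect of stretching differed between groups by edgeR's test of the difference itself in 8 reported cases, most of them below the fold-change limit. Differentiated minus myoblast, the difference of log2 fold changes at 3 h was -0.47 for Kcnj12 (adjusted p = 0.0429), 0.40 for Kcnk5 (adjusted p = 0.0236) and -0.23 for Kcnn4 (adjusted p = 0.0322). At 6 h it was -1.23 for Kcnab1 (adjusted p = 0.0276) and -0.37 for Kcnj12 (adjusted p = 0.0399). Between 6 h and 1 h in myoblasts it was -0.37 for Kcnab3 (adjusted p = 0.00425) and 0.36 for Kcnk5 (adjusted p = 0.0112). Between 6 h and 1 h in differentiated cells it was -0.49 for Kcnab3 (adjusted p = 0.0282). Over the alternatives the adjusted p reached 0.115 for Kcnj12, 0.0641 for Kcnk5 and 0.0811 for Kcnn4 between stages at 3 h, 0.0658 for Kcnab1 and 0.133 for Kcnj12 at 6 h, and 0.0593 for Kcnab3 between times in differentiated cells, so these 6 did not pass under each of them. The 2 differences between times in myoblasts did, with at most 0.0121 for Kcnab3 and 0.0279 for Kcnk5.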

How the results depend on the processing

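Of 942 values of single members under the alternatives, 902 kept direction and side of the call (adjusted p with fold-change limit), 37 lost the call, 3 gained it and 0 reversed. By the adjusted p alone, 147 of 912 values of the 74 results past 0.05 came to 0.05 or over, in 26 of these results. Without the fold-change limit, the members called went from 4 to 11 and from 3 to 6 in myoblasts at 3 and 6 h, and from 2 to 5 and from 3 to 11 in differentiated cells. The same change took the differences between stages from 0 to 3 at 3 h and from 1 to 2 at 6 h, and those between 6 h and 1 h from 0 to 2 in myoblasts and from 0 to 3 in differentiated cells. Of the members called in myoblasts, 1 at 3 h and 1 at 6 h had a mean count of at least 100, as had 12 of the 25 called between stages. With at least 10 counts in every library, 11 were called between stages. The shares of all genes called under these limits were not computed, so these counts have no background beside them. DESeq2 called 1 difference between 6 h and 1 h in differentiated cells. Leaving out each library gave 1 to 4 members in myoblasts at 3 h (2 when non-stretched replicate 10 was dropped and 1 when non-stretched replicate 9 or stretched replicate 7 or 9 was) and 1 to 3 at 6 h (1 without stretched replicate 9). It gave 1 to 3 members in differentiated cells at 3 h (1 without non-stretched replicate 7 or 8), 2 to 4 at 6 h, 0 to 2 differences between stages at 6 h and 0 to 2 between 6 h and 1 h in differentiated cells. No library was left out for the comparison of stages, which had 12 a stage. Low counts limit Kcnj14, Kcnd1, Kcnab1 and Kcnj16, with 7 to 60 counts per library in the groups where they were called.

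Same-numbered libraries were not shown to pair. Their deviations from the group means correlated between -0.17 and 0.37 over 23 pairs, 11 of them over 0.1. In no comparison did all pairs pass 0.1, a limit that cannot settle whether the libraries were paired. With the replicate block, edgeR called 1 member in differentiated cells at 1 h (Kcnj2, log2 fold change -0.59, adjusted p = 0.0107). It called 1 difference between 6 h and 1 h in myoblasts and 3 in differentiated cells, and the Kcnj14 call in myoblasts at 3 h was lost (adjusted p = 0.059). The share of all genes called with the block was not computed, so these counts have no background beside them. By the adjusted p alone, 7 further results came to 0.05 or over with the block: Kcnmb4 in myoblasts at 3 h (0.0687), Kcnc1 (0.0803), Kcnn1 (0.0534) and Kcnn4 (0.0809) in differentiated cells at 6 h, and the differences between stages of Kcnj12 at 3 h (0.10) and 6 h (0.0614) and of Kcnn4 at 3 h (0.0647).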
